A study of Rattus norvegicus with 33 samples.

Results

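Sugars of intestinal mucus and of other host glycans were followed through 7 functional subsystems of the cecal metagenome, out of 1057 in the deposited table, of which 1024 had at least 1 read. A subsystem is a set of gene functions that together carry out a pathway. The 7 were all those whose name contains sialic, neuramin, GlcNAc, N-acetyl-galactosamine, N-acetylgalactosamine, fucose or chitin, so the choice used names and no measured value. They were Sialic Acid Metabolism, CMP-N-acetylneuraminate Biosynthesis, N-Acetyl-Galactosamine and Galactosamine Utilization, Chitin and N-acetylglucosamine utilization, (GlcNAc)2 Catabolic Operon, L-fucose utilization, and L-fucose utilization temp. The last name stands as the table gives it, and what "temp" means is not given in the sources used here.

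Shotgun sequencing was done on DNA from the cecal contents of 33 rats aged 14 to 15 weeks. There were 10 females and 7 males of the spontaneously hypertensive rat (SHR), inbred for the high blood pressure that its rats develop, and 9 females and 7 males of the Wistar Kyoto rat (WKY), its normotensive control strain. The labels name no treatment, and each library came from its own rat. Cage, litter and sequencing batch are not labelled. The strains carry separate runs of rat numbers, so any handling in the order of these numbers cannot be told apart from strain.

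Mucins, the proteins of intestinal mucus, carry sugar chains that start at N-acetylgalactosamine (GalNAc), are extended with galactose and N-acetylglucosamine (GlcNAc), and often end in L-fucose or a sialic acid such as N-acetylneuraminate. Gut bacteria release these sugars with secreted glycosidases and ferment them, and mucus sugars sustain part of the community when dietary fibre is short. GlcNAc is also the unit of chitin, and sialic acid coupled to CMP is the donor with which some bacteria decorate their own surface. A subsystem can therefore stand for the use of a host sugar or for its synthesis by the bacteria.

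All 7 subsystems had reads in each of the 33 rats. Reads assigned to subsystems numbered 95952 to 489862 per library, with a median of 298212 in SHR and 393988 in WKY. The 7 subsystems together took 0.889% to 1.26% of them. Their median share was 1.07% in SHR females, against 1.09% in WKY females, and 1.11% in SHR males, against 1.14% in WKY males. Levels are given as normalized reads, the read count divided by the authors' size factor for the library, and they are not per gene length, so they are compared between rats and not between subsystems. The data are of DNA: more bacteria that carry a pathway and more gene copies per genome cannot be told apart. The 3 shallowest libraries were all SHR, female 9, female 10 and male 4. SHR female 9 was the lowest SHR female for 4 of the 7 subsystems. Depth was uneven within SHR: 6 of its 10 females and 2 of its 7 males had under 250000 reads, while no WKY library did. The strain comparisons were therefore also fitted without these 8 libraries, and without the 9 deeper SHR libraries in their place. The 8 libraries are SHR females 5 to 10 and SHR males 3 and 4, which follow one another without a gap in the rat numbers of the labels. SHR males 5 to 7 come after these 8 in number and were deeper again, with 298212 to 389859 reads. Among SHR females the deeper libraries are females 1 to 4, so depth and rat number cannot be told apart there.

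**Figure D1:**
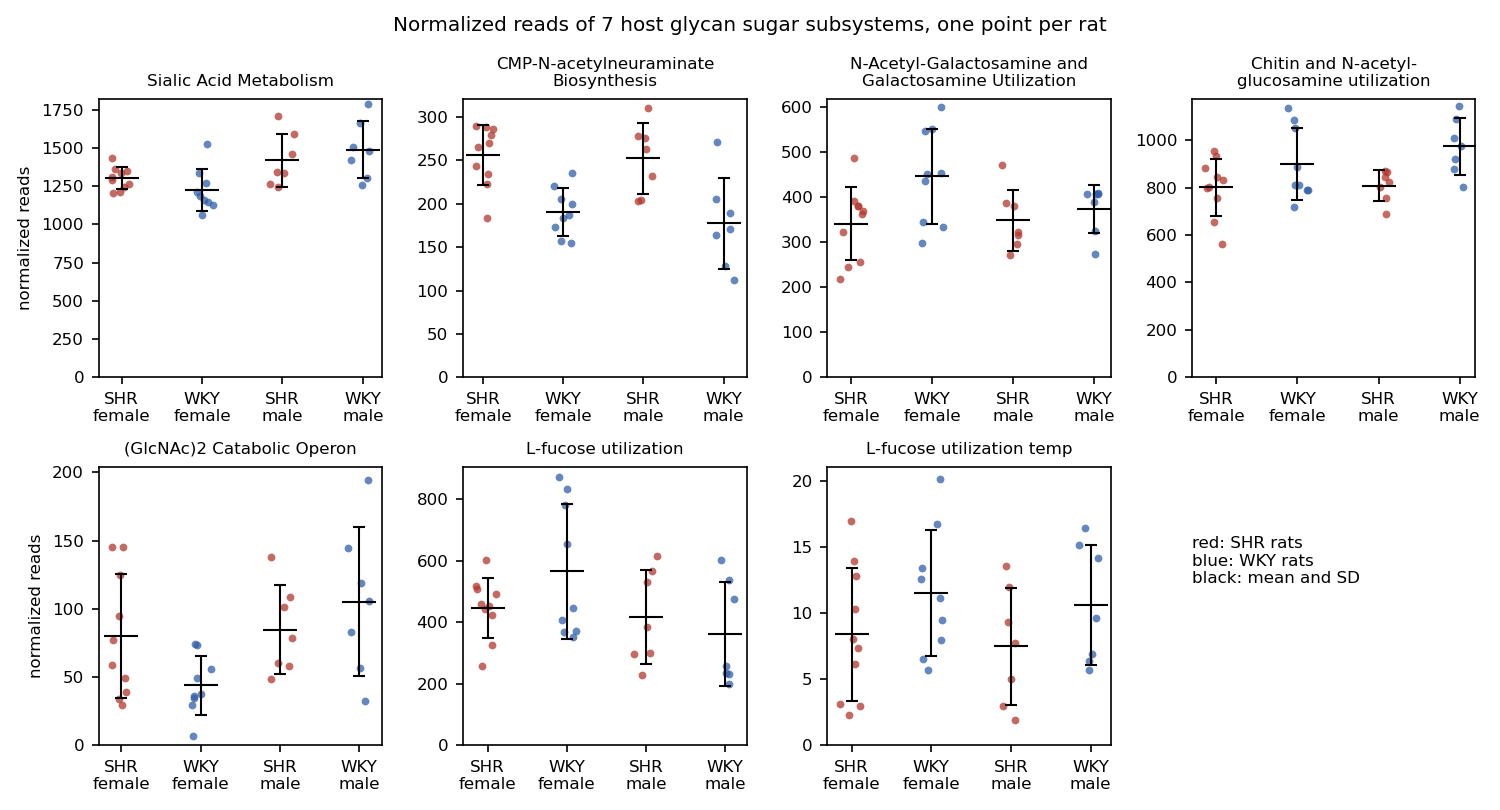
Normalized reads (vertical axes, from 0) of the 7 subsystems, with 1 point per rat, SHR left of WKY within each sex, and black bars for the mean and SD. The points of CMP-N-acetylneuraminate Biosynthesis lie higher in SHR than in WKY rats of the same sex, with means of 256 and 191 in females, while groups overlap in every panel.

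CMP-N-acetylneuraminate Biosynthesis was higher in SHR than in WKY in both sexes, and Chitin and N-acetylglucosamine utilization was lower in SHR over both sexes. These were the 2 of 7 subsystems that passed between the strains averaged over sexes, 1 higher and 1 lower, while 17.8% of all 1024 tested subsystems passed, 6.93% higher and 10.8% lower. In females 1 of the 7 passed (higher), against 8.79% of all subsystems, 3.81% higher and 4.98% lower. In males 1 of the 7 passed (higher), against 2.64% of all subsystems, 0.684% higher and 1.95% lower. The number passing in males was 27, and leaving out 1 rat moved it between 10 and 83. Between females and males of WKY, 1 of the 7 passed, Sialic Acid Metabolism, which was lower in females, against 1.37% of all subsystems and 1.27% lower. The number passing there was 14, and leaving out 1 rat moved it between 3 and 71. Passing means an adjusted p under 0.05 from limma, fitted to log2(normalized reads + 1) of all 1024 subsystems and adjusted over them by the Benjamini-Hochberg method.

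Between females and males of SHR, limma called 0 of the 7 subsystems and 0% of all, and 47 of the 1024 (4.59%) had an unadjusted p under 0.05, none of them among the 7. Whether the strain effect differed by sex was tested as well, and limma called 0 of the 7 and 0% of all subsystems. There 78 of the 1024 (7.62%) had an unadjusted p under 0.05, again none of the 7. edgeR and DESeq2, run on the whole reads recovered from the table, also called 0 of the 7 in both of these comparisons. Over all subsystems edgeR called 0 in both, and DESeq2 called 0 between the sexes of SHR and 1 for strain by sex. With so few calls anywhere, these counts say nothing particular about the 7. The median log2 difference of the 7 subsystems was -0.01 between the strains averaged over sexes, beside -0.04 for all subsystems. It was -0.16 in females, beside -0.05 for all, and -0.11 in males, beside -0.02 for all.

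CMP-N-acetylneuraminate Biosynthesis covers the making of sialic acid and its coupling to CMP, the activated form that a sialyltransferase can add to a surface glycan. It had 184, 268 and 289 normalized reads (lowest, median and highest) in SHR females, against 155, 187 and 235 in WKY females. It had 203, 263 and 311 in SHR males, against 112, 171 and 272 in WKY males. Of the SHR rats, 9 of 10 females lay above the WKY female median and 7 of 7 males above the WKY male median, and the ranges overlapped in both sexes. Means were 256 ± 34.7 in SHR females (SD, n = 10), against 191 ± 27.4 in WKY females (n = 9), and 253 ± 40.6 in SHR males (n = 7), against 177 ± 52.8 in WKY males (n = 7).

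Averaged over the sexes the difference for CMP-N-acetylneuraminate Biosynthesis, SHR minus WKY, was 0.48 ± 0.09 (log2, SE), or 1.40-fold, with a limma adjusted p of 0.000694. It was the 19th smallest p of the 1024. The difference was 0.42 ± 0.12 in females (limma adjusted p = 0.0265) and 0.54 ± 0.14 in males (limma adjusted p = 0.0313), and the strain effects of the sexes differed by -0.12 ± 0.19 (limma adjusted p = 0.913). The call over both sexes held when any 1 of the 33 rats was left out, with differences of 0.43 to 0.54, and without the 3 shallowest libraries, at 0.55. It also held without the 8 SHR libraries under 250000 reads (0.60, limma adjusted p = 0.00139), and was lost with those 8 as the only SHR rats (0.33, limma adjusted p = 0.163).

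The calls for CMP-N-acetylneuraminate Biosynthesis within each sex lay nearer to the threshold. In females the limma adjusted p was 0.0504 without SHR female 1, 0.0525 without WKY female 1 and 0.0576 without WKY female 2. In males it was 0.0866, 0.0688, 0.0534 and 0.0590 without SHR male 1, 2, 5 or 7, and 0.0891 and 0.0809 without WKY male 5 or 6. With only the male rats in the fit it was 0.179, at the same difference. Without the SHR libraries under 250000 reads it was 0.0284 in females and 0.0567 in males, and with those as the only SHR rats it was 0.264 and 0.602. The authors' deposited table for females lists this subsystem with a log2 fold change of -0.45 (adjusted p = 3.31e-05). Their deposited table for males, with 16 subsystems, does not list it. A further deposited table, called general, lists it at -0.54 (authors' adjusted p = 0.000215), and what that model compares is not given in the sources used here. The direction of their female and male contrasts is not given in the sources used here. All 85 subsystems of the female table and all 16 of the male table have the sign opposite to SHR minus WKY. Read as WKY minus SHR, the female value of -0.45 points the same way as the difference found here.

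**Figure D2:**
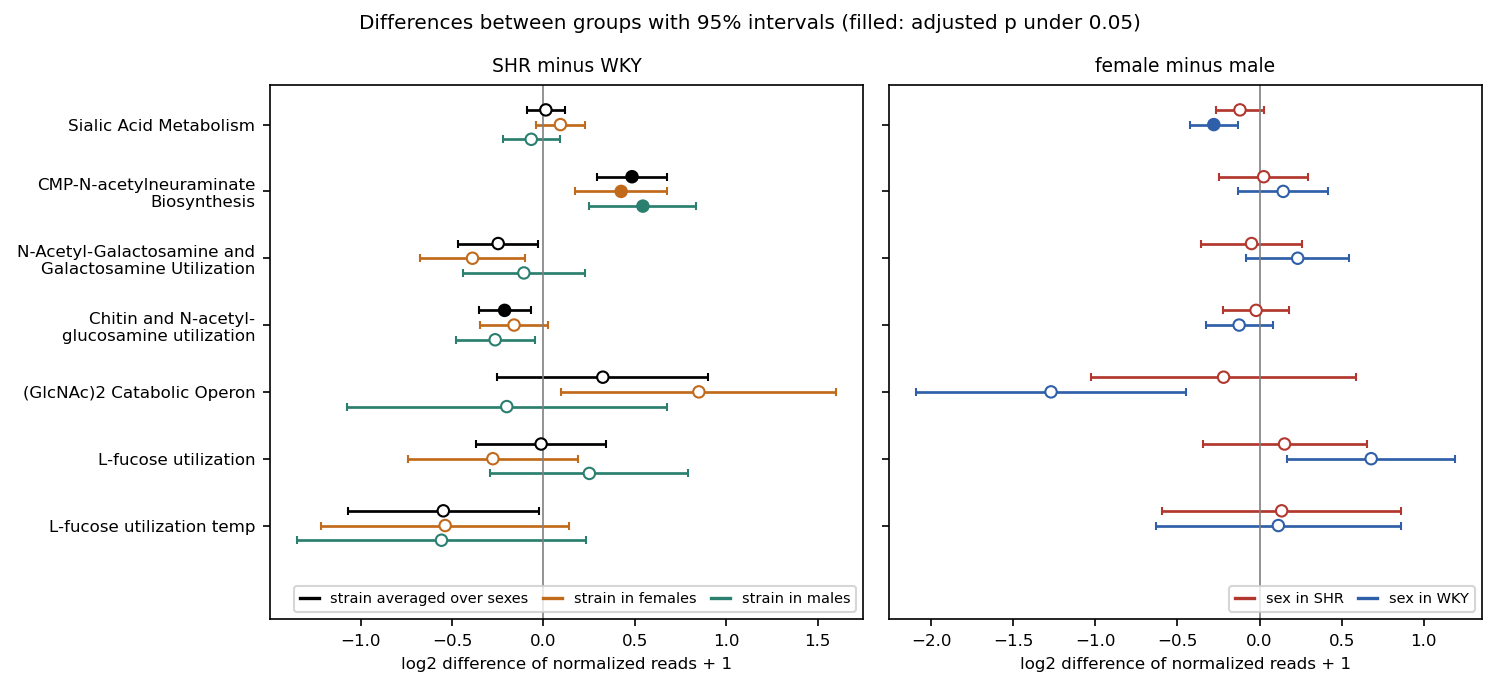
Log2 differences of normalized reads + 1 (horizontal axes) for the 7 subsystems with 95% intervals, SHR minus WKY on the left and female minus male on the right, with filled points where the limma adjusted p was under 0.05. CMP-N-acetylneuraminate Biosynthesis lies right of 0 in all 3 strain comparisons (0.48, 0.42 and 0.54), and (GlcNAc)2 Catabolic Operon has the widest intervals.

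Sialic Acid Metabolism is named for the handling of sialic acids, and its list of functions, for use or for synthesis, is not given in the sources used here. It had 1207, 1299 and 1432 normalized reads in SHR females, against 1063, 1183 and 1524 in WKY females. It had 1242, 1341 and 1706 in SHR males, against 1258, 1480 and 1785 in WKY males. All 10 SHR females lay above the WKY female median but inside the WKY female range. The strain difference was 0.09 in females (95% interval -0.04 to 0.23, limma adjusted p = 0.399) and -0.07 in males (-0.22 to 0.09, limma adjusted p = 0.650). Neither passed the test. The authors' general table lists this subsystem with a log2 fold change of 0.19 (authors' adjusted p = 0.00507), and what that model compares is not given.

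Within WKY, Sialic Acid Metabolism was lower in females than in males. Of the WKY females, 8 of 9 lay below the male median and 6 of 9 below the lowest male, while the ranges overlapped. Means were 1225 ± 138 in WKY females (SD, n = 9) and 1488 ± 187 in WKY males (n = 7), and the difference, female minus male, was -0.28 ± 0.07 (SE, limma adjusted p = 0.0486). In SHR it was -0.12 ± 0.07 (limma adjusted p = 0.829), and the 2 differences were not shown to differ (0.16 ± 0.10, limma adjusted p = 0.779). The WKY call sat at the threshold: it was kept when SHR female 1 or 8, SHR male 4, WKY female 1 or 9, or WKY male 1 or 7 was left out, and lost without any 1 of the other 26 rats. It was lost as well without either set of SHR libraries split by depth (limma adjusted p = 0.0603 and 0.0518), at the same difference. Without one rat the difference ran from -0.32 to -0.23, and the adjusted p reached 0.126 without WKY male 4.

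Chitin and N-acetylglucosamine utilization covers chitinases and the uptake and breakdown of GlcNAc, which mucin chains also supply. It had 564, 818 and 957 normalized reads in SHR females, against 720, 811 and 1136 in WKY females. It had 690, 824 and 872 in SHR males, against 802, 975 and 1146 in WKY males. In males 7 of 7 SHR rats lay below the WKY median, whereas in females SHR rats lay evenly on both sides of it, 5 above and 5 below, and the groups overlapped in both sexes. The difference over both sexes was -0.21 ± 0.07 (SE), or 0.863-fold, with a limma adjusted p of 0.0331.

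Within a sex the difference of Chitin and N-acetylglucosamine utilization did not pass, at -0.16 ± 0.09 in females (limma adjusted p = 0.275) and -0.26 ± 0.11 in males (limma adjusted p = 0.144). The call over both sexes was lost without SHR male 7 (limma adjusted p = 0.0602), WKY male 2 (0.0522), WKY male 3 (0.0509) or WKY female 3 (0.0541). SHR female 9, the shallowest library, was the lowest rat, at 564. The call was also lost without the 8 SHR libraries under 250000 reads (-0.20, limma adjusted p = 0.0836) and with those 8 as the only SHR rats (-0.20, 0.290). Without the 3 shallowest libraries the difference was -0.17 over both sexes (limma adjusted p = 0.0498) and -0.07 in females. The part of depth in this result was not tested further.

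N-Acetyl-Galactosamine and Galactosamine Utilization covers the uptake of GalNAc, the sugar next to the mucin protein, and its conversion for fermentation. It had 218, 365 and 487 normalized reads in SHR females, against 297, 451 and 599 in WKY females. It had 271, 321 and 470 in SHR males, against 273, 406 and 408 in WKY males. Of the SHR females 9 of 10 lay below the WKY female median, and of the SHR males 6 of 7 below the WKY male median, with overlapping ranges. The differences did not pass: -0.39 ± 0.14 in females (limma adjusted p = 0.0752), -0.11 ± 0.16 in males (0.745) and -0.25 ± 0.11 over both sexes (0.102). In females it passed without SHR female 5 (-0.45, limma adjusted p = 0.0384), WKY female 1 (-0.46, 0.0381) or WKY female 5 (-0.43, 0.0482). WKY males spread least, with an SD of 14.4% of their mean, against 23.7% in WKY females.

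(GlcNAc)2 Catabolic Operon describes the breakdown of chitobiose, the GlcNAc dimer of chitin, and is known from Vibrio. It varied most of the 7 relative to its level, with an SD of 57.8% of the mean over all 33 rats. It had 29.3, 67.9 and 146 normalized reads in SHR females, against 6.53, 37.7 and 74.0 in WKY females. It had 48.7, 78.2 and 138 in SHR males, against 32.4, 106 and 195 in WKY males. The 4 SHR females over 250000 reads had 94.4 to 146, and the 6 under it 29.3 to 77.2. In females 5 of 10 SHR rats lay above the highest WKY rat, the 4 deeper ones and 1 of the others, and in WKY 9 of 9 females lay below the male median, with overlapping ranges throughout.

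No difference of (GlcNAc)2 Catabolic Operon passed the limma test over all rats. SHR minus WKY was 0.85 ± 0.37 in females (limma adjusted p = 0.134) and -0.20 ± 0.43 in males (0.830), and the strain effects differed between the sexes by 1.05 ± 0.57 (0.729). In females it was 1.72 without the 6 SHR females and 2 SHR males under 250000 reads, and passed there (limma adjusted p = 0.0228), against 0.27 with those as the only SHR rats (0.818). Depth and rat number part the SHR females alike, so their parts in this value cannot be told apart, and neither was tested. Female minus male was -1.27 ± 0.41 in WKY (limma adjusted p = 0.0822) and -0.22 ± 0.40 in SHR (0.923). On the recovered reads the WKY difference did pass, at -1.29 by edgeR (adjusted p = 0.0367) and -1.25 by DESeq2 (adjusted p = 0.0235). WKY female 2, with 7 reads, weighs on both female values: without it they were 0.56 between the strains in females (limma adjusted p = 0.292) and -0.98 between the sexes in WKY (0.126).

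L-fucose utilization covers the uptake of fucose and its breakdown through fuculose. It had 258, 455 and 603 normalized reads in SHR females, against 352, 446 and 872 in WKY females. It had 229, 385 and 615 in SHR males, against 197, 257 and 603 in WKY males. Its medians were close between the strains in females, and 6 of 7 SHR males lay above the WKY male median. The strain difference was -0.28 ± 0.23 in females (limma adjusted p = 0.487), 0.25 ± 0.27 in males (0.628) and -0.01 ± 0.18 over both sexes (0.970). In WKY all 9 females lay above the male median and 4 of 9 above the highest male, but the difference, female minus male, of 0.68 ± 0.25 did not pass (limma adjusted p = 0.123). It passed without WKY male 7, the highest male (0.82, limma adjusted p = 0.0407). In SHR it was 0.15 ± 0.25 (limma adjusted p = 0.921).

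L-fucose utilization temp was the rarest of the 7, with 1 to 26 reads per rat. It had 2.25, 7.67 and 17.02 normalized reads in SHR females, against 5.70, 11.2 and 20.2 in WKY females. It had 1.88, 7.73 and 13.6 in SHR males, against 5.67, 9.63 and 16.4 in WKY males. The counting error of a level, 1 over the square root of its reads, had a root mean square of 56.0% over the SHR females. The rats with 1 or 2 reads raise that figure most. The SD between SHR females was 60.2% of their mean. These figures weigh the rats unlike, so the part of counting in this spread was not tested. For Sialic Acid Metabolism the same figures were 3.39% and 5.50%. The strain difference of L-fucose utilization temp, -0.55 ± 0.26 over both sexes, did not pass (limma adjusted p = 0.133).

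The subsystems around the 7 were followed in 3 further lists, chosen by name. For these lists only the main limma fit was read. Their calls were not checked with single rats left out, by depth or by edgeR and DESeq2. Of 12 subsystems for other sugars and for the tailoring of host glycans, 2 were higher and 1 was lower in SHR over both sexes, beside the 6.93% and 10.8% of all subsystems given above. Lacto-N-Biose I and Galacto-N-Biose Metabolic Pathway, which bifidobacteria use to take up the disaccharide cores of milk and mucin glycans, was higher. It had 586, 834 and 1049 normalized reads in SHR females, against 498, 622 and 748 in WKY females. It had 498, 786 and 1004 in SHR males, against 470, 667 and 871 in WKY males. The difference was 0.33 ± 0.09 over both sexes (limma adjusted p = 0.0132) and 0.46 ± 0.12 in females (limma adjusted p = 0.0153).

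Sulfatases and sulfatase modifying factor 1, which holds enzymes that strip sulfate from sulfated glycans together with the protein that activates them, was lower in SHR. It had 5.48, 16.5 and 31.1 normalized reads in SHR females, against 13.9, 25.1 and 263 in WKY females. It had 5.13, 15.2 and 55.8 in SHR males, against 18.7, 58.2 and 168 in WKY males. The WKY rats spread widely and the groups overlapped, and the difference over both sexes was -1.54 ± 0.38 (SE, limma adjusted p = 0.00555). The other one that was higher, Mannose-sensitive hemagglutinin type 4 pilus, is an attachment pilus and no sugar pathway, and its highest level in any rat was 6.40 normalized reads (0.73 ± 0.26 over both sexes, limma adjusted p = 0.0451).

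Of 2 measured subsystems for sialic acid-like sugars of bacterial surfaces, Legionaminic Acid Biosynthesis was higher in SHR over both sexes, beside 6.93% of all subsystems. It had 163, 204 and 236 normalized reads in SHR females, against 146, 181 and 228 in WKY females. It had 156, 206 and 226 in SHR males, against 123, 161 and 201 in WKY males. The groups overlapped, with a difference of 0.26 ± 0.07 (limma adjusted p = 0.0126). Pseudaminic Acid Biosynthesis, the other, had a difference of 0.66 (95% interval above 0, limma adjusted p = 0.0584) and did not pass. Of 4 subsystems named for the amino sugars or the murein of the bacterial wall, 1 was lower over both sexes, beside 10.8% of all, and 1 was higher in females, beside 3.81% of all. The lower one was Murein hydrolase regulation and cell death (-0.22 ± 0.08, limma adjusted p = 0.0429). The higher one was Murein Hydrolases (0.18 ± 0.06, limma adjusted p = 0.0431), and both lay near the threshold. Both are named for enzymes that cut the wall, and the subsystems for its amino sugars passed in no comparison. None of the 3 lists held a call in males or between the sexes of either strain.

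The 7 subsystems were set against 3 resident genera known to use mucin or host glycans, Akkermansia, Bacteroides and Muribaculum, across the rats of each strain. Of the 42 correlations, 18 passed by Pearson's r after adjustment over the 42, and 12 of these also by Spearman's rho (permutation tests, 2-sided). The other subsystems were not set against these genera, so the share passing among all subsystems is not known. Whether these relations are particular to the 7 was not tested. Bacteroides took 3.29%, 9.84% and 17.3% of bacterial reads in SHR females (lowest, median and highest), against 3.89%, 6.17% and 16.4% in WKY females. It took 3.09%, 5.47% and 13.4% in SHR males, against 1.20%, 2.17% and 8.21% in WKY males. Akkermansia varied most, with 0.0655% to 1.08% in SHR females against 0.0685% to 22.7% in WKY females, and 0.0580% to 7.88% in SHR males, against 0.151% to 16.3% in WKY males. Both measures come from the same libraries, and both are parts of a whole, so a genus that takes more reads lowers the share of others. The SHR correlations pool libraries over and under 250000 reads. L-fucose utilization had medians of 512 over and 432 under that depth in SHR females, and 529 and 263 in SHR males. Neither these correlations nor the pairs of subsystems below were refitted by depth, so its part in them was not tested.

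L-fucose utilization went with Bacteroides and with Muribaculum in both strains. With Bacteroides, Pearson's r was 0.88 over 17 SHR rats and 0.98 over 16 WKY rats, each with a permutation p of 1e-05, the smallest that the resamples can give (adjusted p = 0.000105). Spearman's rho was 0.80 in SHR (permutation p = 0.00026, adjusted p = 0.00273) and 0.96 in WKY (permutation p = 1e-05, adjusted p = 0.00021). Without the 2 rats farthest from the median share, r was 0.79 in SHR and 0.98 in WKY. It held within each sex, at 0.84 for females and 0.95 for males of SHR, and 0.98 for females and 0.97 for males of WKY. With Muribaculum r was 0.91 in SHR and 0.89 in WKY (permutation p = 1e-05 and adjusted p = 0.000105 for each), rho was 0.87 and 0.88 (adjusted p = 0.00021 in SHR and 0.00056 in WKY), and r without the 2 farthest rats was 0.86 and 0.94. With Akkermansia in SHR r was -0.67 (permutation p = 0.00323, adjusted p = 0.0136), but rho, -0.53, did not pass (adjusted p = 0.0731). In WKY neither r of -0.53 (adjusted p = 0.0676) nor rho of -0.58 (adjusted p = 0.0615) passed. With each sex centred on its own mean both passed in both strains, with r of -0.67 (adjusted permutation p = 0.0110) and rho of -0.62 (adjusted p = 0.0287) in SHR, and r of -0.69 (adjusted p = 0.0130) and rho of -0.74 (adjusted p = 0.00861) in WKY.

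**Figure D3:**
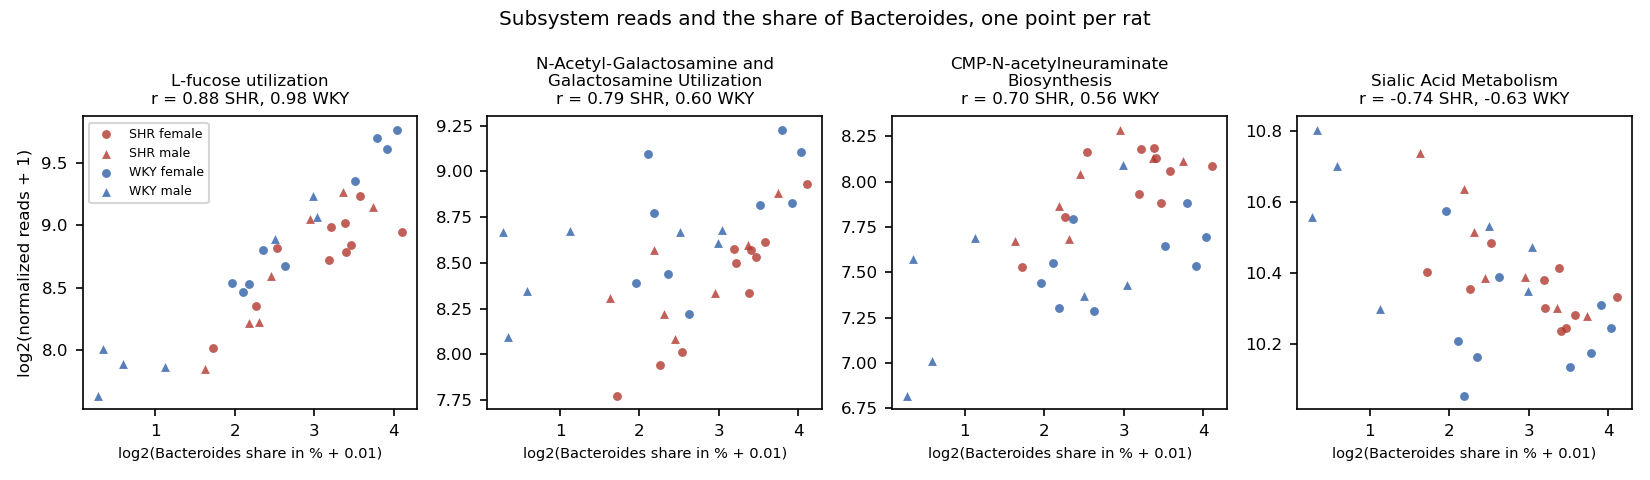
Log2(normalized reads + 1) of 4 subsystems (vertical axes) against log2 of the Bacteroides share in percent of bacterial reads + 0.01 (horizontal axes), with 1 point per rat, SHR in red and WKY in blue, circles for females and triangles for males. L-fucose utilization climbs with Bacteroides in both strains (r = 0.88 in SHR and 0.98 in WKY), while Sialic Acid Metabolism declines (-0.74 and -0.63).

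N-Acetyl-Galactosamine and Galactosamine Utilization also went with Bacteroides, with r of 0.79 in SHR (permutation p = 0.00019, adjusted p = 0.00133), rho of 0.76 (adjusted p = 0.00353) and r of 0.79 without the 2 farthest rats. In WKY r was 0.60 (permutation p = 0.0155, adjusted p = 0.0383) and rho 0.60 (adjusted p = 0.0523), and the call was lost when each sex was centred on its own mean (0.50, adjusted p = 0.0897) or when the subsystem was taken as a percent of subsystem reads (0.56, adjusted p = 0.0555). With Muribaculum r was 0.61 in SHR (adjusted p = 0.0248), with rho of 0.62 (adjusted p = 0.0383). In WKY it was 0.53 and did not pass (adjusted permutation p = 0.0676). Chitin and N-acetylglucosamine utilization followed Bacteroides in SHR, with r of 0.64 (permutation p = 0.00435, adjusted p = 0.0166) and rho of 0.61 (adjusted p = 0.0392). That relation was 0.90 within SHR females and 0.21 within SHR males, and r in WKY was 0.07.

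CMP-N-acetylneuraminate Biosynthesis went with Muribaculum in SHR, where r was 0.73 (permutation p = 0.00081, adjusted p = 0.00425), rho 0.67 (adjusted p = 0.0215) and r without the 2 farthest rats 0.61. In WKY r was 0.66 (adjusted p = 0.0177), but rho, 0.47, did not pass (adjusted p = 0.123). With Bacteroides r was 0.70 in SHR (adjusted p = 0.00980), with rho of 0.55 (adjusted p = 0.0630), and 0.56 in WKY (adjusted p = 0.0502). In SHR it ran against Akkermansia, with r of -0.61 (adjusted p = 0.0248) and rho of -0.61 (adjusted p = 0.0392). In WKY that relation did not pass, with r of -0.21 (adjusted permutation p = 0.566).

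Sialic Acid Metabolism ran the other way. In SHR r was -0.74 with Bacteroides (permutation p = 0.00047, adjusted p = 0.00282), with rho of -0.77 (adjusted p = 0.00406), and -0.78 with Muribaculum (permutation p = 0.0001, adjusted p = 0.00084), with rho of -0.72 (adjusted p = 0.00882). Without the 2 farthest rats these were -0.72 and -0.66. In WKY r with Bacteroides was -0.63 (adjusted p = 0.0248) and rho -0.50 (adjusted p = 0.102), and r was -0.19 within females and -0.57 within males, and -0.40 with each sex centred on its own mean (adjusted p = 0.185). With the subsystem as a percent of subsystem reads r was -0.70 (adjusted permutation p = 0.0120), rho was -0.64 (adjusted p = 0.0401) and r within females was -0.44. With Muribaculum in WKY r was -0.54 and did not pass (adjusted permutation p = 0.0676), but as a percent of subsystem reads it was -0.63 (adjusted permutation p = 0.0294). The relation of Sialic Acid Metabolism with Akkermansia in SHR, with r of 0.55 (adjusted p = 0.0471), rested on 2 rats and was -0.04 without them. (GlcNAc)2 Catabolic Operon ran against Akkermansia in WKY, with r of -0.62 (permutation p = 0.00786, adjusted p = 0.0248), rho of -0.68 (adjusted p = 0.0215) and r of -0.73 without the 2 farthest rats. In SHR that relation did not pass, with r of -0.22 (adjusted permutation p = 0.530). None of the 3 genera passed with L-fucose utilization temp.

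The 7 subsystems did not move as a block across rats. After group means were removed, 12 of their 21 pairs passed by Pearson's r over the 33 rats, 8 positive and 4 negative, and 8 pairs also by Spearman's rho. Pairs of other subsystems were not tested, so the share of pairs that pass in general is not known. Some subsystems outside the 7 had higher values with a member than any of these pairs, such as 0.89 for CMP-N-acetylneuraminate Biosynthesis with Serine-glyoxylate cycle. CMP-N-acetylneuraminate Biosynthesis and L-fucose utilization moved together, with r of 0.68 (permutation p = 2e-05, adjusted p = 0.00021), rho of 0.62 (adjusted p = 0.00231) and r of 0.61 without the 2 farthest rats. The value was 0.87 within SHR and 0.59 within WKY. The use of GalNAc and that of chitin and GlcNAc also went together, with r of 0.68 (permutation p = 1e-05, the smallest possible, adjusted p = 0.00021), rho of 0.69 (adjusted p = 0.00063), and 0.78 within SHR and 0.59 within WKY. The deposited sources do not say whether a read can count in more than one subsystem, so the part of shared reads in these pairs was not tested.

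All 4 negative pairs held Sialic Acid Metabolism. It ran against N-Acetyl-Galactosamine and Galactosamine Utilization (r = -0.50, adjusted permutation p = 0.0194; rho = -0.46, adjusted p = 0.0247) and against CMP-N-acetylneuraminate Biosynthesis (r = -0.44, adjusted permutation p = 0.0253; rho = -0.48, adjusted p = 0.0247). Its pairs with L-fucose utilization (r = -0.45) and L-fucose utilization temp (r = -0.40) passed by Pearson's r alone. (GlcNAc)2 Catabolic Operon went with L-fucose utilization (r = 0.47, adjusted permutation p = 0.0216, and rho = 0.47, adjusted p = 0.0247) and with Chitin and N-acetylglucosamine utilization (r = 0.45, adjusted permutation p = 0.0253, and rho = 0.44, adjusted p = 0.0281).

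**Figure D4:**
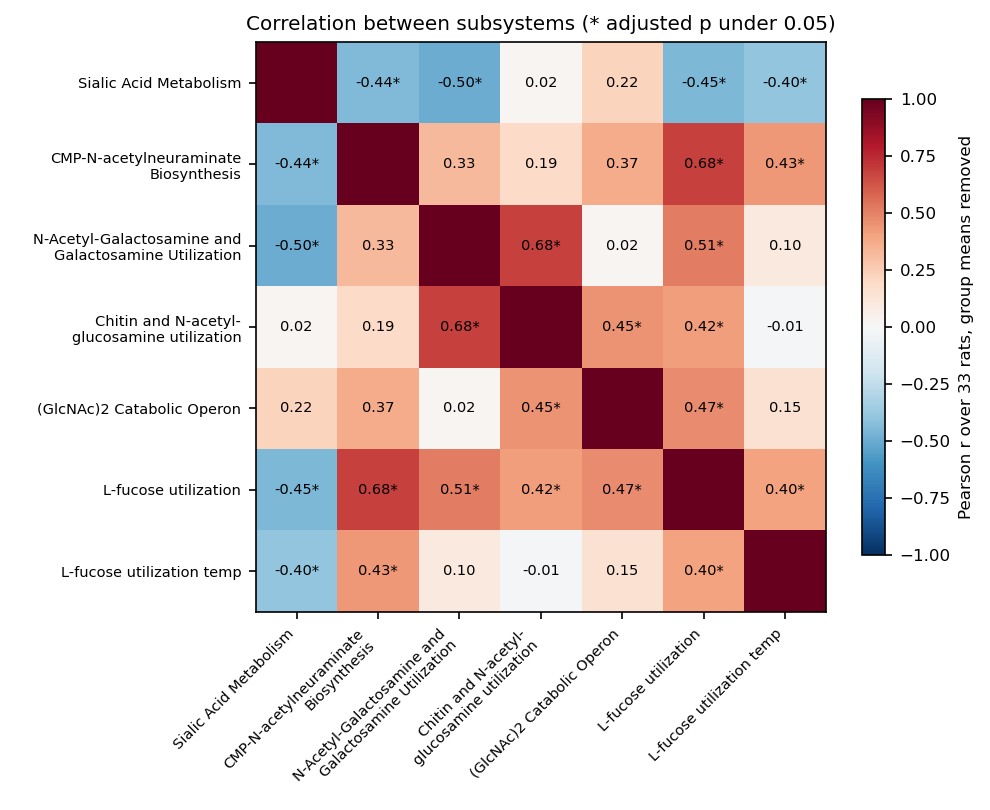
Pearson's r between each pair of the 7 subsystems over 33 rats after group means were removed, from blue (-1) to red (1), with a star where the adjusted permutation p was under 0.05. Sialic Acid Metabolism is negative with 4 of the others (-0.40 to -0.50), and the highest values are 0.68.

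Other subsystems with the most similar deviations from the group means were sought among the subsystems with a mean of at least 10 normalized reads, as a description without a test. L-fucose utilization was most like L-rhamnose utilization (r = 0.93), the use of a related 6-deoxy sugar, then Ton and Tol transport systems (0.93), by which Gram-negative bacteria energise uptake through the outer membrane. CMP-N-acetylneuraminate Biosynthesis was most like Serine-glyoxylate cycle (0.89), then Capsular heptose biosynthesis (0.85) and N-linked Glycosylation in Bacteria (0.85). N-Acetyl-Galactosamine and Galactosamine Utilization was most like Zinc resistance (0.90) and Galactosylceramide and Sulfatide metabolism (0.85). Sialic Acid Metabolism was most like ABC transporter oligopeptide (TC 3.A.1.5.1) (0.77) and Extracellular Polysaccharide Biosynthesis of Streptococci (0.71). (GlcNAc)2 Catabolic Operon was most like Iron acquisition in Streptococcus (0.76). Chitin and N-acetylglucosamine utilization had its highest value with the GalNAc subsystem (0.68), and L-fucose utilization temp with Heme biosynthesis orphans (0.57).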

How the data were processed

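Per the labels' protocols, a robot with magnetic beads (a PowerSoil kit) extracted the DNA of cecal contents, and Nextera reagents made the libraries. The submitters' processing notes name Trimmomatic 0.36, FastQC 0.11.5, DESeq2 and cutadapt 2.6. What named the taxa and functions is not given in the sources used here. The deposited subsystem table holds a signal, the read count over each library's size factor. Dividing each column by its smallest step gave whole reads for 100% of values (tolerance 0.01 read). The deposited genus table is in percent of bacterial reads. The authors' deposited model tables give a log2 fold change, its standard error and the mean level (used as a score), and a p-value with an adjusted p-value. Rats are numbered within groups in accession order, and cage mates or litter mates, where present, would make p-values too small.

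The 7 subsystems, the lists beside them and the tests were chosen with earlier results of these data known. All 7 are named, and of the 3 lists those that passed in any comparison. A single limma fit (trend and robust moderation, 2-sided) on log2(normalized reads + 1) with 4 group means gave 6 comparisons over the 1024 subsystems with a read. A fold on this scale understates changes of low levels. Correlations used 100000 resamples. Intervals are 95% and depth limits precision from counting alone, since PCR copies were not told apart by molecular identifiers. On simulated reads for the strain comparison in females (1024 subsystems), limma called 54% of subsystems changed 1.3-fold, 68% at 1.5-fold and 94% at 2-fold, and 0.607% of unchanged ones. There 50 subsystems were changed at each of 1.3-, 1.5-, 2- and 3-fold, all with a mean of at least 10 normalized reads. These shares may not hold where fewer subsystems differ, and they do not cover L-fucose utilization temp, with a mean of 9.53. Alternatives were edgeR and DESeq2 on recovered reads, pseudocounts of 0.5 and 5, a filter (at least 10 in at least 7 rats, which kept 650 subsystems and all 7), equal library totals, plain moderation, only the groups compared, and leaving out the 3 shallowest libraries or each rat. A split of the SHR libraries at 250000 subsystem reads was added after seeing the data. The software was limma 3.58.1, DESeq2 1.42.0 and edgeR 4.0.16 in R 4.3.3, and scipy 1.17.1, pandas 2.3.3, numpy 2.4.6 and matplotlib 3.10.9 in Python 3.11.15.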

Additional observations from a re-analysis of the deposited data

Results flagged for a closer look

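The level of (GlcNAc)2 Catabolic Operon in WKY female 2 lay far below that of the other WKY females, at 6.53 normalized reads from 7 reads, with a gap to the next rat of 0.609 of the group's whole range on the log2(normalized reads + 1) scale. It was 1 such rat among 28 sets of a subsystem and a group, where chance gives about 1 in 20. Without WKY female 2 the log2 difference of this subsystem was 0.56 for SHR minus WKY females (limma adjusted p = 0.292) and -0.98 for WKY females minus WKY males (limma adjusted p = 0.126).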

How the results depend on the processing

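Between the strains averaged over sexes, 2 of the 7 subsystems passed under all 8 other settings, and 1 to 2 when a rat was left out. In females 1 passed under all 9 settings, and 0 to 2 without a rat. In males the count was 0 with only the groups compared, 1 otherwise, and 0 to 1 without a rat. Between the sexes of WKY it was 0 with a pseudocount of 0.5, equal totals, plain moderation or only the groups compared, 2 with edgeR and DESeq2, and 0 to 2 without a rat. Among all subsystems, calls ran over settings (173 to 221 of 1024 averaged over sexes) from 72 to 150 in females (90 as reported), from 0 to 77 in males (27) and from 2 to 68 between the sexes of WKY (14). Without a rat they ran from 137 to 213 averaged over sexes, 61 to 136 in females, 10 to 83 in males and 3 to 71 between the sexes of WKY. In the settings chosen after seeing the data, leaving out the 8 SHR libraries under 250000 reads gave 1 of the 7 averaged over sexes, 2 in females, 0 in males and 0 between the sexes of WKY, and 168, 111, 9 and 9 of all subsystems. Leaving out the 9 deeper SHR libraries in their place gave 0 of the 7 in each, and 32, 26, 2 and 11 of all, with fewer SHR rats in both fits. Between the sexes of SHR these settings called 2 and 7 of all subsystems, and 7 and 0 for strain by sex. The causes of these shifts were not tested.

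Differences that changed sign did not pass in either form. Without the 3 shallowest libraries these were L-fucose utilization over both sexes (0.125), Sialic Acid Metabolism over both sexes (-0.0141), and, between the sexes of SHR, (GlcNAc)2 Catabolic Operon (0.0200), Chitin and N-acetylglucosamine utilization (0.0919, and 0.0104 with DESeq2) and N-Acetyl-Galactosamine and Galactosamine Utilization (0.0611). L-fucose utilization temp in strain by sex turned to -0.0187. Without the 8 libraries under 250000 reads the sign turned for L-fucose utilization (0.227) and Sialic Acid Metabolism (-0.0180) over both sexes, L-fucose utilization temp in females (0.176), and (GlcNAc)2 Catabolic Operon (0.642) and chitin (0.0663) between the sexes of SHR. Without the 9 deeper SHR libraries it turned for L-fucose utilization (-0.340) and Sialic Acid Metabolism (0.156) in males, and in strain by sex for chitin (-0.00534), L-fucose utilization temp (-0.0195) and Sialic Acid Metabolism (-0.0810). Leaving out a rat gave, between the sexes of SHR, -0.0245 to 0.0778 for CMP-N-acetylneuraminate Biosynthesis, -0.0584 to 0.0335 for chitin, -0.110 to 0.0267 for GalNAc and -0.0913 to 0.299 for L-fucose utilization temp. It gave -0.0743 to 0.0596 for L-fucose utilization and -0.00978 to 0.0357 for Sialic Acid Metabolism over both sexes, and for L-fucose utilization temp -0.00244 to 0.228 between the sexes of WKY and -0.206 to 0.185 in strain by sex. No paired analysis was possible because rats are numbered in accession order and the numbers pair no animals.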
